A study of Mus musculus with 12 samples.

Results

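Genes of the circadian clock and its output were followed across 12 pools of mouse dorsal skin, each read on 1 expression array. The genes were listed by name: Dbp, Tef, Per1, Per2, Per3, Nr1d1, Nr1d2, Arntl and Npas2. A gene was used where a row of the array table names that gene alone, and the row with the highest mean stood for it, which gave 8 of the 9 listed genes out of 22180 genes in all. Per2 has only a row that also names another gene and is not analysed here. The list was chosen by a measured value, because Dbp changed with age in opposite directions in transgenic skin with and without IL-6, so the age values of transgenic skin are descriptions and carry no test.

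The clock is a feedback loop of transcription. The protein of Arntl (BMAL1) pairs with CLOCK, or with its relative NPAS2, and switches on genes that hold an E-box, among them the Per, Nr1d and Dbp genes. The PER proteins then block this pair, and the nuclear receptors of Nr1d1 and Nr1d2 (REV-ERB) repress Arntl and Npas2 through response elements shared with the ROR receptors, so Arntl messenger RNA peaks when that of Nr1d1 and Dbp is low. Dbp and Tef encode bZIP factors that bind the D-box and carry the rhythm to other genes. Skin runs such a clock in its epidermis, hair follicles and dermis, and skeletal muscle under the dermis runs one as well.

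The animals were C57Bl/6 mice of both sexes, collected at 10 or 14 weeks of age. The 6 groups are labelled WT, IL-6KO (without IL-6), IL-17C+ (overexpressing the cytokine IL-17C from a transgene) and IL-17C+KO (that transgene without IL-6), each of the latter split into affected (involved) and uninvolved skin. Each group has 1 pool per age, so n = 2 per group, and a pool holds skin of 5 mice, or of 4 in the 10-week pools of WT and IL-6KO, 58 in all. The sources used here do not give the promoter that drives the transgene, the hour of the day at which skin was taken, or whether involved and uninvolved pools share mice. IL-6KO skin carries the skin type "involved" in the labels, although no transgene is named for it. The p-values reflect spread among pools, not among mice, and no group has pools of the same age. That spread therefore also holds unlike age changes of the groups, and each SD also holds the age change of its group. Having 2 arrays per group limits every value.

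Several pools stood apart or went against their labels. Markers of epidermis were present on every array, 5 of 5 measured genes above the array median. The mean of 6 neutrophil markers was 7.77 and 8.17 (log2, at 10 and 14 weeks) in IL-17C+ involved skin and 7.69 and 8.28 in skin labelled IL-17C+KO uninvolved, but 4.21 and 5.67 in skin labelled IL-17C+KO involved. The transgenic gene Il17c lay between 4.16 and 6.63 over the arrays, lowest in IL-17C+ uninvolved and highest in IL-17C+ involved skin, both at 14 weeks, and read 6.30 and 6.17 in IL-6KO skin, which should carry no transgene. Il6, the deleted gene, was above the array median on 3 arrays, and these were labelled as lacking it: IL-17C+KO uninvolved (4.93 and 5.00) and IL-17C+KO involved at 14 weeks (4.64). No source here says whether its probes lie in the deleted part, so this row does not check the deletion. Group names are those of the labels throughout, and every direction rests on them. The mean of 10 skeletal muscle markers ranged from 7.76 to 10.78 across arrays, and that of 6 hair shaft markers from 4.79 to 10.51, so the pools also differed in tissue make-up.

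The promoters of these genes hold some of the sequence elements through which clock proteins act. RefSeq windows (GRCm38.p6) from 250 bases before to 50 bases after an annotated start were found for the 8 genes, 11 windows in all, and were searched on both strands for the E-box CACGTG, the D-box TTATGTAA or TTACGTAA, and a 7-base core of the ROR and REV-ERB element, TAGGTCA or TGGGTCA. Of the 32851 windows in the RefSeq table, 7.15% held the E-box, 1.06% the D-box and 6.45% the core. These 4 stretches are printed 5′ to 3′, because they carry the matches that lie before the starts, with the matches in capitals. Per3 held a pair of D-boxes, at bases -205 to -198 and -158 to -151 from its start, in chr4:151044666-151044915 (minus strand). Per1 held an E-box at -166 to -161 of the more upstream of its starts, in chr11:69098699-69098948 (plus strand). Both windows of Tef held an E-box, at -127 to -122 in chr15:81802423-81802672 and at -138 to -133 in chr15:81811164-81811413 (plus strand).
Per3: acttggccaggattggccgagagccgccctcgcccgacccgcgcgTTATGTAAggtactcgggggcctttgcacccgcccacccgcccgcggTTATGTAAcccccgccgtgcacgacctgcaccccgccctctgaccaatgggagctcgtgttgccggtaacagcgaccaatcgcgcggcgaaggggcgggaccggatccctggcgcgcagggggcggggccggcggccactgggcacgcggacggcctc
Per1: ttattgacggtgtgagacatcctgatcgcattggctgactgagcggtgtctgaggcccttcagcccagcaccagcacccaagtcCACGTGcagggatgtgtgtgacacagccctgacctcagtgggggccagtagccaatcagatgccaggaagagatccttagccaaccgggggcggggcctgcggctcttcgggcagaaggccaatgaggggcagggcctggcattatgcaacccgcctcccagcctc
Tef, upstream start: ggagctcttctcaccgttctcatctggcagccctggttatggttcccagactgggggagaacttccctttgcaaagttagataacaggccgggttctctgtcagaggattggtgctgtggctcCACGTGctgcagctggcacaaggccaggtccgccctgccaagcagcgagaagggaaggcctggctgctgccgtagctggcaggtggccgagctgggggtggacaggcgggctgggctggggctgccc
Tef, downstream start: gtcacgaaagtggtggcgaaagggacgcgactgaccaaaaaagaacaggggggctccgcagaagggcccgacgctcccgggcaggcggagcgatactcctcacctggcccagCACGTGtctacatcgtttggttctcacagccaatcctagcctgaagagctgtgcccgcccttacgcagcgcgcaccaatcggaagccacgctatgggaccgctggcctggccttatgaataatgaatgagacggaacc
In Arntl the core stood at bases 31 to 37 after the more downstream of its starts (window chr7:113207261-113207560, plus strand), shown here with its neighbours.
Arntl: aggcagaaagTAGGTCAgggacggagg
The windows of Dbp, Nr1d1, Nr1d2 and Npas2 held none of these letters, which says nothing of sites elsewhere in those genes.

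Dbp, the D-box activator, was at a log2 intensity of 6.93 (10 weeks) and 8.17 (14 weeks) for WT, 6.46 and 6.80 for IL-6KO, 7.18 and 7.73 for IL-17C+ uninvolved, 5.93 and 6.98 for IL-17C+ involved, 6.42 and 6.36 for IL-17C+KO uninvolved, and 7.31 and 6.22 for IL-17C+KO involved skin. The 14-week WT pool was the highest and the 10-week IL-17C+ involved pool the lowest, 4.71-fold apart. By group mean the order ran from WT (7.55 ± 0.88, SD, n = 2) and IL-17C+ uninvolved (7.46 ± 0.39) through IL-17C+KO involved (6.77 ± 0.77), IL-6KO (6.63 ± 0.24) and IL-17C+ involved (6.46 ± 0.74) to IL-17C+KO uninvolved skin (6.39 ± 0.04), and no step between neighbours exceeded the larger of their SDs. Tef, its relative in the same family, had the same highest and lowest pool, 6.30 and 4.30, and was above the array median on 10 arrays. In WT it read 5.11 and 6.30, in IL-17C+ uninvolved skin 5.11 and 5.58, and in IL-17C+ involved skin 4.30 and 4.97, so the involved pools lay below all 4 of the others. A second row of Tef stayed between 3.26 and 4.01 and barely followed the row used (r = 0.17 over 12 arrays).

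**Figure D1:**
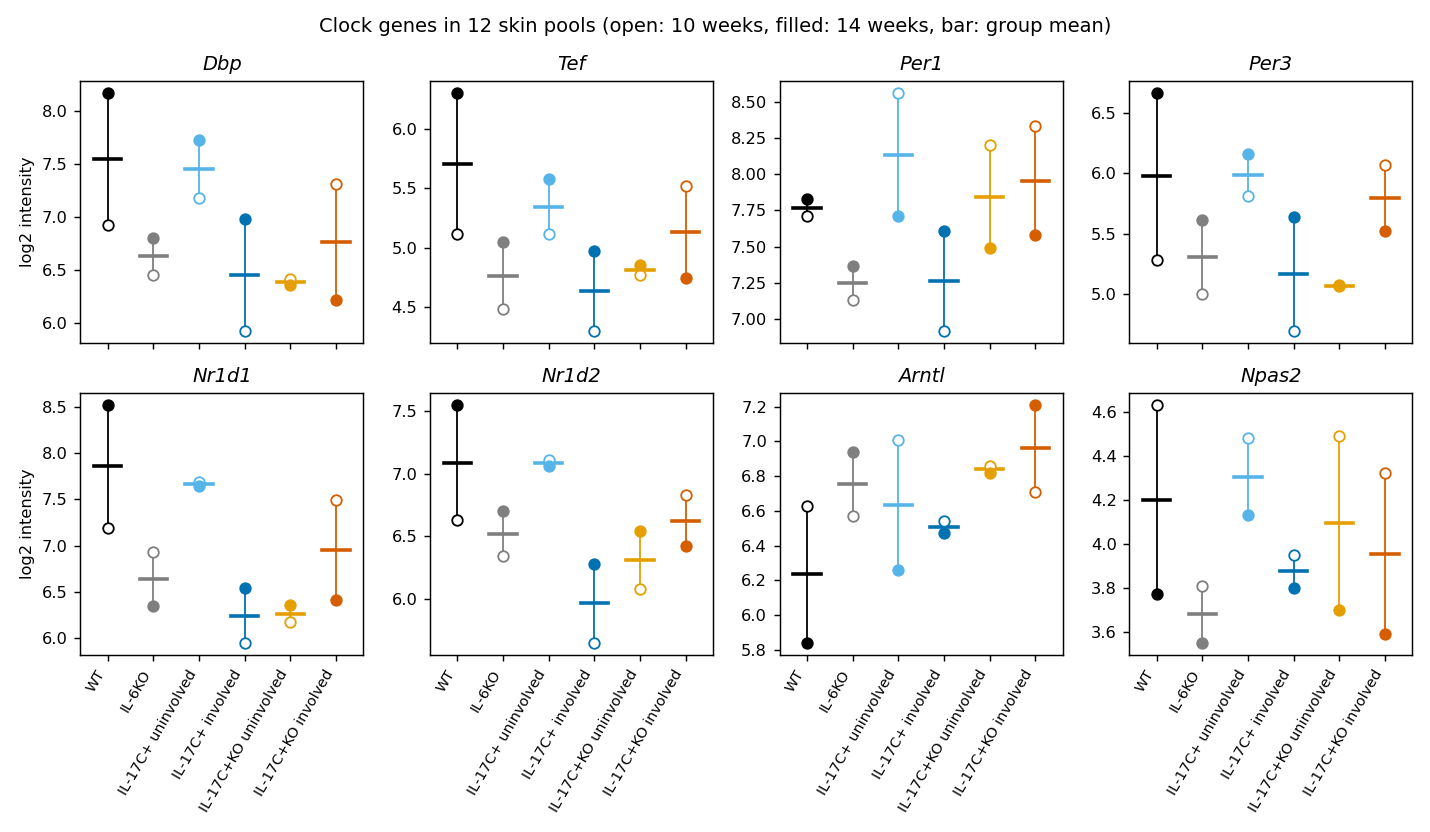
Log2 intensity (y axis) of 8 clock genes in the 6 groups (x axis), with open circles for the 10-week pool, filled circles for the 14-week pool and bars for the mean of both. In WT the 14-week pool reads highest of all 12 for Dbp, Tef, Per3, Nr1d1 and Nr1d2 and lowest for Arntl.

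Nr1d1 and Nr1d2 encode the REV-ERB repressors, and Nr1d1 spread more widely than Dbp, Nr1d2 less (SD 0.51, 3.74-fold). At 10 and 14 weeks Nr1d1 was at 7.19 and 8.52 for WT, 6.93 and 6.35 for IL-6KO, 7.69 and 7.64 for IL-17C+ uninvolved, 5.95 and 6.54 for IL-17C+ involved, 6.17 and 6.36 for IL-17C+KO uninvolved, and 7.49 and 6.41 for IL-17C+KO involved skin. Its pools were up to 5.93-fold apart, with an SD of 0.77 over the 12 arrays, against 0.65 for Dbp, whose SD was larger than that of 96.2% of all genes. Nr1d2 ranged from 5.65 in IL-17C+ involved skin at 10 weeks to 7.55 in WT at 14 weeks, with group means of 7.09 ± 0.65 in WT, 7.08 ± 0.03 in IL-17C+ uninvolved, 6.62 ± 0.29 in IL-17C+KO involved, 6.52 ± 0.25 in IL-6KO, 6.31 ± 0.32 for uninvolved IL-17C+KO skin and 5.96 ± 0.45 for involved IL-17C+ skin. WT and IL-17C+ uninvolved skin thus headed both lists and IL-17C+ involved skin closed them.

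Of the period genes, which encode the repressors of the loop, Per3 followed Dbp and Per1 did so less. Per3 ranged from 4.69 in IL-17C+ involved skin at 10 weeks to 6.67 in WT at 14 weeks, and in IL-17C+KO uninvolved skin its pools were at 5.06 and 5.07. Per1 was highest at 10 weeks, in the uninvolved IL-17C+ pool (8.56) and in the involved (8.33) and uninvolved (8.20) IL-17C+KO pools, and lowest in IL-17C+ involved (6.92) and IL-6KO skin (7.13) of the same age. At 14 weeks it stayed between 7.37 and 7.83 in all 6 groups. The 14-week WT pool, which led Dbp, Tef, Per3, Nr1d1 and Nr1d2, was at 7.83 for Per1, close to the 7.71 of the 10-week WT pool.

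Arntl and Npas2 belong to the activating arm. Arntl was at 6.63 and 5.84 for WT, 6.57 and 6.94 for IL-6KO, 7.01 and 6.26 for IL-17C+ uninvolved, 6.54 and 6.47 for IL-17C+ involved, 6.86 and 6.82 for IL-17C+KO uninvolved, and 6.71 and 7.21 for IL-17C+KO involved skin. Its lowest pool, WT at 14 weeks, was the highest pool of Dbp, Tef, Per3, Nr1d1 and Nr1d2. Npas2 was above the array median on 1 of 12 arrays (4.63, WT at 10 weeks) and otherwise lay between 3.55 and 4.49, so its differences are close to the floor of the array. Over all 8 genes, 3 of 40 steps between neighbouring group means exceeded the larger of the 2 SDs.

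The genes moved together from pool to pool. Over the 12 arrays Dbp correlated with Tef at Pearson r = 0.95 (Spearman rho = 0.93), with Per3 at 0.93 (0.89), with Nr1d1 at 0.91 (0.87) and with Nr1d2 at 0.89 (0.80), but with Per1 at 0.48 (0.64) and with Npas2 at 0.18 (0.23). These are 6 of 28 pairs of members, given as descriptions without p-values, because pools share groups, ages and tissue make-up. Without the 2 arrays farthest from the Dbp median the same 4 highest values were 0.90, 0.84, 0.81 and 0.76. They held within each age, at 0.95, 0.96, 0.94 and 0.96 over the 6 arrays of 10 weeks and 0.96, 0.94, 0.94 and 0.87 over the 6 arrays of 14 weeks. Per1 and Npas2 followed Dbp more closely within an age than over all arrays. Within 10 and 14 weeks the r of Per1 with Dbp was 0.79 and 0.77, and that of Npas2 0.59 and 0.63.

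The sign of the relation between Arntl and Dbp was not the same at the 2 ages. Over all arrays Arntl correlated with Dbp at r = -0.65 (rho = -0.45), with Tef at -0.60 (-0.29), with Nr1d1 at -0.58 (-0.32), with Per3 at -0.47 (-0.24) and with Nr1d2 at -0.38 (-0.07). Within the 14-week arrays the value with Dbp was -0.95 and within the 10-week arrays 0.51, a contrast that was not tested. Without both WT arrays the value with Dbp over both ages was -0.37 and that with Nr1d2 was 0.08. Without the 2 arrays farthest from the Dbp median the value with Dbp was -0.59. Without the 2 farthest from the Nr1d2 median the value with Nr1d2 was -0.11. The size of the negative values over all arrays thus depends on which pools are kept, those of WT among them. Clock, the partner of Arntl, correlated with Arntl at 0.72 (rho = 0.72) and with Dbp at -0.43 (-0.46).

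**Figure D2:**
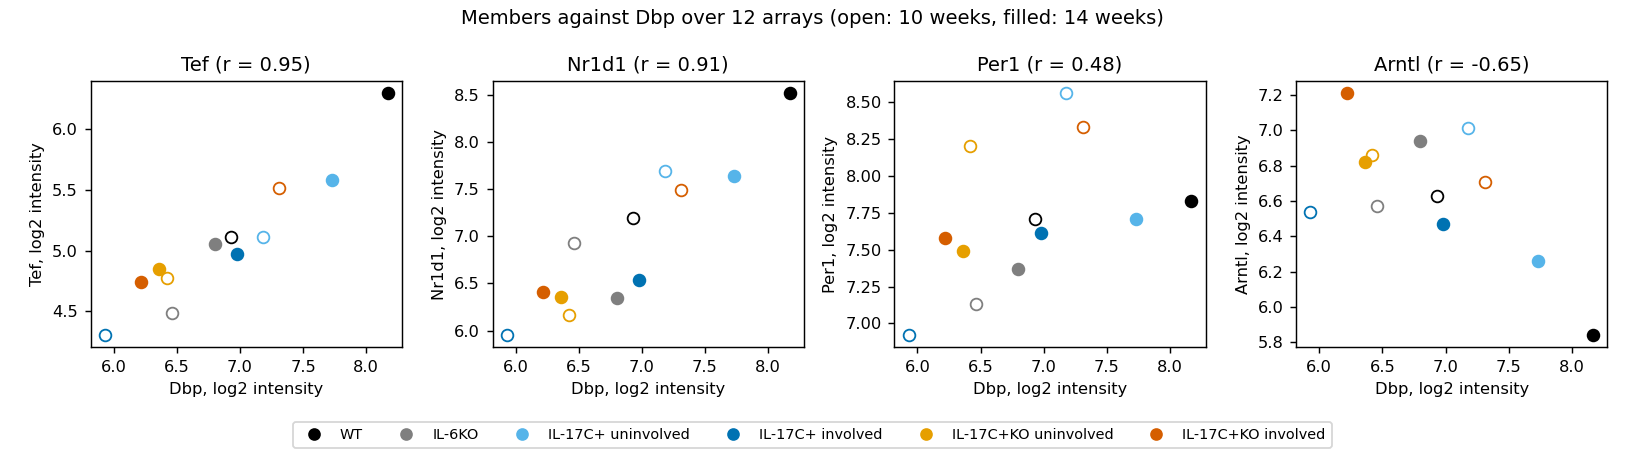
Log2 intensity of Tef, Nr1d1, Per1 and Arntl (y axes) against that of Dbp (x axis) on 12 arrays, coloured by group, open at 10 weeks and filled at 14 weeks. Tef (r = 0.95) and Nr1d1 (r = 0.91) lie along a line with Dbp, and Arntl (r = -0.65) runs the other way mainly in the filled points. Per1 (r = 0.48) scatters more over all arrays than within 10 weeks (0.79) or 14 weeks (0.77).

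As a summary per pool, the deviations of Dbp, Tef, Per1, Per3, Nr1d1 and Nr1d2 from their own means were averaged. The 14-week WT pool stood at 1.05 with all 6 genes above their means and Arntl 0.82 below its own (deviation -0.82). IL-17C+ uninvolved skin at 10 and 14 weeks (0.46 and 0.52) and IL-17C+KO involved skin at 10 weeks (0.47) also had all 6 above, with Arntl at 0.35, -0.39 and 0.06. The 10-week IL-17C+ involved pool was lowest at -0.88 with 0 of 6 above, and IL-6KO at 10 weeks (-0.40), IL-17C+KO involved at 14 weeks (-0.31) and IL-17C+KO uninvolved at 14 weeks (-0.34) also had 0 of 6 above. Arntl in these 4 pools deviated by -0.12, -0.09, 0.56 and 0.17. The WT pool of 10 weeks stood at 0.02, so the 2 WT pools were far apart on this summary.

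Against WT, clock output genes read lower in affected transgenic skin, without passing the test. In skin labelled IL-17C+ involved, Nr1d1 differed from WT by -1.61 ± 0.44 (log2 ± SE of limma; 3.05-fold, adjusted p = 0.0942 by limma with Benjamini-Hochberg over all genes) and Nr1d2 by -1.13 ± 0.30 (adjusted p = 0.0903). Dbp differed by -1.09 ± 0.43 (adjusted p = 0.314), Tef by -1.07 ± 0.36, Per3 by -0.81 ± 0.37 and Per1 by -0.51 ± 0.36, while Arntl differed by 0.27 ± 0.32 and Npas2 by -0.33 ± 0.24. Of the 8 genes 0 passed an adjusted p of 0.05, against 1.8% of all genes, and 5 had an unadjusted p under 0.05, against 12% of all genes. Their median difference was -0.94, and that of all genes 0.01. In 4 of 8 (Tef, Per1, Nr1d1 and Nr1d2) both involved pools lay below both WT pools, as did 16.4% of all genes.

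These values moved when single pools were left out or muscle markers were added to the model. By limma Nr1d1 passed without the 10-week WT array, where the lone WT array is taken to vary like the other groups (-2.37, adjusted p = 0.0185), but not without the 14-week WT array (-0.85), and at -1.61 without either IL-17C+KO involved array (adjusted p = 0.0431 and 0.0434), and Nr1d2 passed when arrays were quantile normalized again (-1.22, adjusted p = 0.0283). Over these and the other alternatives the adjusted p of limma ran up to 1 for both genes. With the mean of the skeletal muscle markers added to the model Nr1d1 turned to 0.51 ± 0.59, Dbp to 0.35 ± 0.77, Per3 to 0.24 ± 0.70 and Tef to 0.06 ± 0.67, and Nr1d2 was -0.15 ± 0.56. The muscle list mean was 10.04 and 10.78 in WT and 8.05 and 7.76 in IL-17C+ involved skin, with 9 of 10 muscle markers passing as lower. As these means do not overlap, this model could not separate group from muscle content. The SE of Dbp was 0.43 without the covariate and 0.77 with it. The same limit holds for the later comparisons in which members are given with this covariate, where the muscle means do not overlap either. In such bulk samples fewer cells of a type and less RNA per cell cannot be told apart.

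Within the IL-17C+ genotype most members read lower in involved than in uninvolved skin, again without passing the test. For Dbp, Tef, Per1, Per3, Nr1d1, Nr1d2 and Npas2 both IL-17C+ involved pools lay below both IL-17C+ uninvolved pools, 7 of 8 genes against 23.4% of all genes. Because Dbp, Tef, Per3, Nr1d1 and Nr1d2 follow each other from pool to pool, these are not 7 independent counts. Nr1d1 differed by -1.42 ± 0.44 (adjusted p = 0.157), Nr1d2 by -1.12 ± 0.30 (adjusted p = 0.0999), Per3 by -0.82 ± 0.37 (adjusted p = 0.392) and Per1 by -0.87 ± 0.36 (adjusted p = 0.341), all by limma. Arntl differed by -0.13 ± 0.32, with an interval from -0.83 to 0.57. Of the 8 genes 0 passed in this comparison, against 1.61% of all genes, and 5 had an unadjusted p under 0.05, against 12.2% of all genes. Dbp was 2-fold lower (adjusted p = 0.364). With the muscle covariate Nr1d1 turned to 0.79 ± 0.61 and Dbp to 0.51 ± 0.79, and Per1 was -0.75 ± 0.79. The neutrophil means given above were also far apart between these pools, 5 of 6 markers passing as higher, and their part was not tested.

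**Figure D3:**
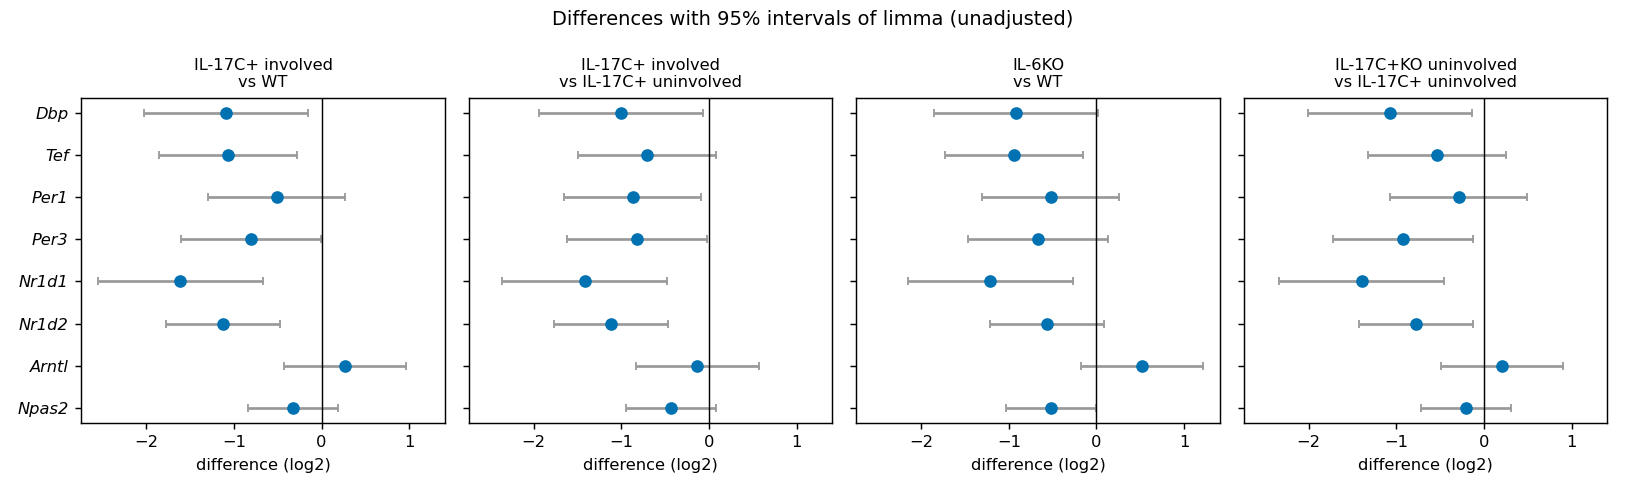
Difference in log2 intensity (x axis, first named group minus second, with the 95% interval of limma before adjustment) for 8 clock genes (y axis) in 4 comparisons. Nr1d1 has the largest size in each panel, from -1.61 to -1.21, and Arntl lies at or near 0 or to its right.

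Skin without IL-6 was compared with skin of the same transgene status, and no member passed the test. In IL-6KO against WT skin, Nr1d1 differed by -1.21 ± 0.44 (adjusted p = 0.411), Tef by -0.94 ± 0.36 (adjusted p = 0.474), Dbp by -0.92 ± 0.43 (adjusted p = 0.606) and Arntl by 0.52 ± 0.32 (adjusted p = 0.737), by limma. Both IL-6KO pools lay below both WT pools for Dbp, Tef, Per1 and Nr1d1, 4 of 8 genes against 14.7% of all genes, and 0 of 8 passed, against 0.455% of all genes (3 at an unadjusted p under 0.05, which is 37.5% of members against 8.41% of all genes). Without the 14-week WT array Nr1d1 differed by -0.45, and without the 10-week WT array by -1.97. Tissue markers moved with this comparison: 10 of 10 muscle markers (2 passing) and 6 of 6 fibroblast markers (3 passing) were lower, and 6 of 6 hair shaft markers (1 passing) were higher, with medians of -1.83, -1.55 and 2.50. With the muscle covariate Nr1d1 was 0.42 ± 0.49, Dbp 0.19 ± 0.64, Tef -0.08 ± 0.55 and Arntl -0.36 ± 0.48.

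In IL-17C+KO uninvolved against IL-17C+ uninvolved skin, Nr1d1 differed by -1.40 ± 0.44 (adjusted p = 0.268), Dbp by -1.07 ± 0.43 (adjusted p = 0.499), Per3 by -0.92 ± 0.37 (adjusted p = 0.495) and Nr1d2 by -0.77 ± 0.30 (adjusted p = 0.46), by limma. Here Dbp, Tef, Per3, Nr1d1 and Nr1d2 did not overlap, 5 of 8 against 21% of all genes, and 0 of 8 passed, against 0.712% of all genes (4 at an unadjusted p under 0.05, which is 50% of members against 7.87% of all genes). The neutrophil markers were high in the IL-17C+KO uninvolved pools and low in the IL-17C+ uninvolved pools (4.08 and 3.73), and the muscle list mean was 8.45 and 8.92 against 10.67 and 10.35. With the muscle covariate Nr1d1 was 0.15 ± 0.48, Dbp -0.01 ± 0.62, Per3 -0.15 ± 0.56 and Nr1d2 -0.06 ± 0.45, and the part of neutrophils was not tested. This comparison rests on site labels of IL-17C+KO that the neutrophil markers go against. By group mean Nr1d1 was 6.26 ± 0.13 in IL-17C+KO skin labelled uninvolved, beside 6.24 ± 0.42 in IL-17C+ involved and 7.66 ± 0.03 in IL-17C+ uninvolved skin, and 6.95 ± 0.76 in IL-17C+KO skin labelled involved (SD, n = 2).

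The comparison of IL-17C+KO involved with IL-17C+ involved skin gave 8 positive differences of 8 with a median of 0.56. The largest was Nr1d1 at 0.70 ± 0.44, and Nr1d2 differed by 0.66 ± 0.30 (adjusted p = 0.527 by limma). With 0 of 8 passing, against 0.649% of all genes, and 1 at an unadjusted p under 0.05 (against 9.29% of all genes), only Nr1d2 and Arntl had pools that did not overlap, against 23.5% of all genes. Without the 10-week IL-17C+KO involved array Nr1d1 differed by 0.02, and without the 14-week one by 1.39. These 2 groups share the involved label but not the level of neutrophil markers given above. Muscle markers were higher in 10 of 10 (median 1.62, 0 passing) and hair shaft markers lower in 6 of 6 (median -2.85, 1 passing). With the muscle covariate Nr1d1 was -0.56 ± 0.42, Dbp -0.55 ± 0.55, Tef -0.18 ± 0.48 and Nr1d2 0.08 ± 0.40.

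In the other comparisons of groups no member passed. IL-17C+ uninvolved skin differed from WT by -0.09 ± 0.43 for Dbp, -0.19 ± 0.44 for Nr1d1 and 0.40 ± 0.32 for Arntl, and 0 of 8 passed, against 0.0541% of all genes (0 at an unadjusted p under 0.05). The interval for Dbp ran from -1.03 to 0.84. IL-17C+KO involved against IL-17C+KO uninvolved skin gave 0.73 ± 0.37 for Per3 (interval -0.07 to 1.53) and 0.68 ± 0.44 for Nr1d1, the 2 of 8 that did not overlap (21.6% of all genes), with 0 of 8 passing, against 0.505% of all genes. Against IL-6KO skin, Per1 was the member with pools above in both IL-17C+KO groups, by 0.71 ± 0.36 in involved and 0.60 ± 0.36 in uninvolved skin, 1 of 8 without overlap in each (16.7% and 17.1% of all genes), and Dbp was the 1 of 8 with pools below, in uninvolved skin (17% of all genes). In either comparison 0 of 8 passed, against 0.171% and 0.397% of all genes. Across the 10 comparisons, which share arrays, limma passed 0 of 80 tests of members, and 19 had an unadjusted p under 0.05. Per comparison the share of all genes with such a p ran from 3.94% to 12.2%.

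Between 10 and 14 weeks over all groups, limma called 0 of 22180 genes (0%, with 1856 at an unadjusted p under 0.05). Npas2 was lower at 14 weeks in 6 of 6 groups, by -0.53 ± 0.14 on average (adjusted p = 0.571), all at levels near or below the array medians. Per3 differed by 0.46 ± 0.21, Tef by 0.37 ± 0.21 and Dbp by 0.34 ± 0.25. Per3 and Tef were higher at 14 weeks in 5 of 6 groups.

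The age change itself differed from group to group, and this contrast chose the list. From 10 to 14 weeks Dbp changed by 1.24 in WT, 0.33 in IL-6KO, 1.04 in IL-17C+ involved and 0.55 in IL-17C+ uninvolved skin, but by -1.09 in IL-17C+KO involved and -0.06 in IL-17C+KO uninvolved skin, with 1 array on each side. IL-17C+KO minus IL-17C+ was -2.13 in involved and -0.61 in uninvolved skin for Dbp. Tef (-1.45 and -0.38), Per3 (-1.50 and -0.33), Nr1d1 (-1.67 and 0.23), Per1 (-1.44 and 0.15) and Nr1d2 (-1.05 and 0.50) showed the same order, and the last 3 had the opposite sign in uninvolved skin. Arntl went the other way at both sites (0.57 and 0.70), while Npas2, near the array floor, had the sign of Dbp at both (-0.59 and -0.44). Dbp was the only member to move up in both IL-17C+ sites and down in both IL-17C+KO sites, a course that 7.88% of all genes took, and the smallest of its 4 changes was -0.06.

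The WT pools, which were not part of that choice, were as far apart. There Per3 changed by 1.39, Nr1d1 by 1.33, Dbp by 1.24 and Tef by 1.20, which is 4 of 8 members over 2-fold, against 6.27% of all genes in WT, and Arntl changed by -0.79. In IL-17C+KO involved skin 2 of 8 members were over 2-fold, against 2.64% of all genes, and in IL-17C+ involved skin 1 of 8, against 0.96%. In IL-6KO, IL-17C+ uninvolved and IL-17C+KO uninvolved skin 0 of 8 were, against 5.45%, 2.46% and 0.803% of all genes. Markers moved between the same pools: from 10 to 14 weeks the muscle list mean went from 10.04 to 10.78 in WT and from 10.14 to 8.67 in IL-17C+KO involved skin, and the hair shaft list mean in the latter from 4.79 to 8.13. In WT the mean of adipocyte markers went from 6.27 to 7.77, of hair shaft markers from 7.23 to 8.14 and of neutrophil markers from 4.28 to 3.60. Xist, which is expressed in female cells, went from 4.15 to 9.22 there. Their part was not tested.

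**Figure D4:**
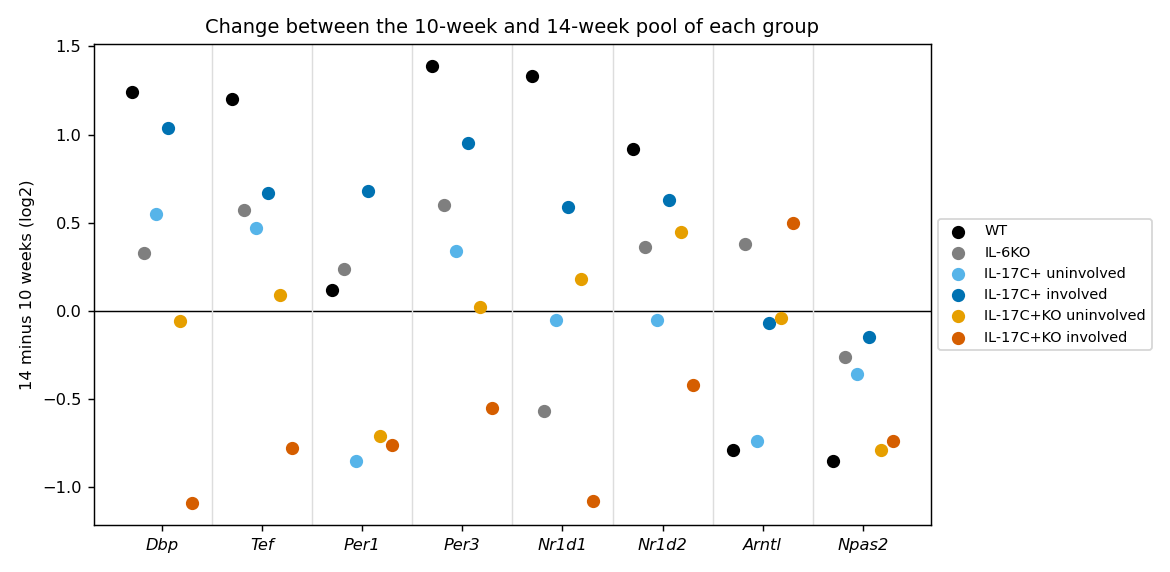
Log2 level at 14 weeks minus that at 10 weeks (y axis) for 8 clock genes (x axis), 1 point per group and 1 array on each side of every difference. WT points for Dbp, Tef, Per3 and Nr1d1 lie between 1.20 and 1.39, while IL-17C+KO involved points for Dbp and Nr1d1 lie at -1.09 and -1.08.

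Other genes of the loop, on a list of 13 with 10 measured, mostly did not pass. Bhlhe41, a repressor of E-box genes, was lower in IL-17C+ involved than in WT skin by 1.48 ± 0.32 (difference -1.48, adjusted p = 0.0366 by limma), with pools at 4.35 and 4.19 against 5.16 and 6.33, so that 1 of 10 passed as lower and 0 as higher. Cry2, a partner of the PER proteins, was lower in IL-17C+ involved than uninvolved skin (difference -1.56 ± 0.34, adjusted p = 0.0409), with pools at 4.57 and 5.32 against 6.65 and 6.36, again 1 of 10 lower and 0 higher. In each of the other 8 comparisons 0 of 10 passed. Dbp correlated with Bhlhe41 at r = 0.86, with the repressor gene Ciart at 0.81 and with Cry2 at 0.73. Its r with Nfil3, which opposes Dbp at the D-box, was -0.54 (rho = -0.36). Without both WT arrays these r were 0.76, 0.74, 0.71 and, for Nfil3, -0.14. Of 6 output genes, 5 of them measured, Noct, a rhythmic regulator of messenger RNA and metabolism, rose in IL-17C+ involved against WT skin by 1.33 ± 0.30 (adjusted p = 0.0405), with WT pools at 3.93 and 3.74, below the array medians. The calls of Bhlhe41, Cry2 and Noct were lost with the muscle list mean as a covariate. That model called 0 of all genes in IL-17C+ involved against WT skin, in place of 399, and 0 against uninvolved skin, in place of 357. The loss is therefore not particular to these genes.

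Over all 12 arrays Per1 had the highest r of the 8 members with acute response genes, but not always within a single age. Its r with the mean of 9 immediate early genes (Fos, Egr1 and others) was 0.74 (rho = 0.79), 0.78 within 10 weeks and 0.88 within 14 weeks, while Dbp had 0.38 over all arrays. Within 10 weeks Npas2 (0.86) and Arntl (0.84) were above Per1. With the mean of 10 glucocorticoid-responsive genes Per1 had 0.74 (rho = 0.48), 0.83 within 10 weeks but -0.26 within 14 weeks. Within 10 weeks Per3 (0.89) and Nr1d2 (0.88) were above it, and within 14 weeks Arntl was highest (0.47). In IL-6KO against WT skin 1 of 9 immediate early genes passed as lower (Nr4a1, difference -1.75 ± 0.31, adjusted p = 0.0347 by limma) and 0 as higher. This call was lost with the muscle list mean as a covariate. As that model called 0 of all genes here, in place of 101, the loss is not particular to Nr4a1. The immediate early mean was 6.44 and 6.59 in IL-6KO skin, the lowest of all groups, where Per1 read 7.13 and 7.37.

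The genes whose course over the 12 arrays was most like that of Dbp were Csrnp2 (r = 0.96), Tef (0.95), Per3 (0.93), Itpkb (0.91), Cgnl1 (0.91) and Zc2hc1a (0.91), among 10466 genes with a mean above the median. Nr1d1 ranked 7 and Nr1d2 10 on the same scale, Bhlhe41 31 and Ciart 105. The least like were Ccne1 (-0.90), which drives entry into S phase, Nppb (-0.88), Ppa1 (-0.87), Kif26b (-0.86), the epidermal growth factor Epgn (-0.86) and Cmpk1 (-0.86). Dbp itself followed the skeletal muscle list mean at r = 0.73 (0.95 within 10 weeks and 0.75 within 14 weeks). So did the 6 genes most like Dbp, with r from 0.64 (Per3) to 0.88 (Cgnl1). The 6 least like it went against that mean, with r from -0.90 (Epgn) to -0.72 (Cmpk1). Among all 10466 genes 11.8% had a size of r over 0.7 with that mean. After regression of each gene on the muscle mean Dbp still had r = 0.90 with Tef, 0.88 with Per3, 0.88 with Nr1d1, 0.75 with Nr1d2 and -0.59 with Arntl, but 0.12 with Per1.

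Over all 12 arrays Nr1d1 had the largest r, by size, of the 8 members with the muscle and neutrophil markers. Its r with the muscle list mean was 0.91 (rho = 0.87, with 0.98 within 10 weeks and 0.90 within 14 weeks). With the neutrophil list mean it was -0.81 (rho = -0.85, with -0.95 and -0.74). Within 10 weeks Nr1d2 had the same r with the muscle mean (0.98). Within 14 weeks Per3 (-0.82) and Nr1d2 (-0.81) had a larger size with the neutrophil mean. The split by neutrophil markers was not complete: IL-17C+ involved and IL-17C+KO uninvolved skin, with neutrophil means of 7.69 or more, had Nr1d1 between 5.95 and 6.54, and WT and IL-17C+ uninvolved skin, with neutrophil means of 4.28 or less, had it between 7.19 and 8.52. IL-6KO skin had Nr1d1 at 6.93 and 6.35 with neutrophil means of 4.50 and 5.20, and IL-17C+KO involved skin at 7.49 and 6.41 with means of 4.21 and 5.67.

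Arntl followed Y-linked genes. Of the 6 genes most like Arntl, Duoxa1 (0.88), Eif2s3y (0.86), Slc10a6 (0.86), Zbtb43 (0.84), Uty (0.83) and Ifrd1 (0.82), a pair lies on the Y chromosome. With Eif2s3y, Uty and Kdm5d averaged, the r of Arntl was 0.82 (rho = 0.79), and 0.96 within each age. The other members followed this mean within an age too, but with opposite signs at 10 and 14 weeks. Within 14 weeks their r ran from -0.94 (Dbp) to -0.77 (Nr1d2 and Npas2). Within 10 weeks it ran from 0.47 (Nr1d1) to 0.90 (Per1), and over all arrays from -0.41 (Nr1d1) to 0.22 (Per1). This Y-linked mean was lowest, 5.15, in the 14-week WT pool, where Arntl was also lowest. It reached 6.63 and 6.67 in the 14-week IL-17C+KO involved and IL-6KO pools, where Arntl read 7.21 and 6.94. The least like Arntl were Rgs10 (-0.89), Mllt6 (-0.86), Pgap4 (-0.84), Fiz1 (-0.83), Xkr8 (-0.82) and Cln6 (-0.82). Xist, which is expressed in female cells, did not mirror the Y-linked mean at 10 weeks: in the WT pool it was lowest, 4.15, while the Y-linked mean was 5.34. At 14 weeks it was highest in IL-17C+ uninvolved (9.76) and WT skin (9.22), where the Y-linked mean was 5.35 and 5.15. It was lowest there in IL-6KO skin (5.55), where that mean was 6.67. IL-17C+KO uninvolved skin at 14 weeks was high in both (8.41 and 6.44). What part the mix of males and females in a pool has in the level of Arntl or of the other members was not tested.

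**Figure D5:**
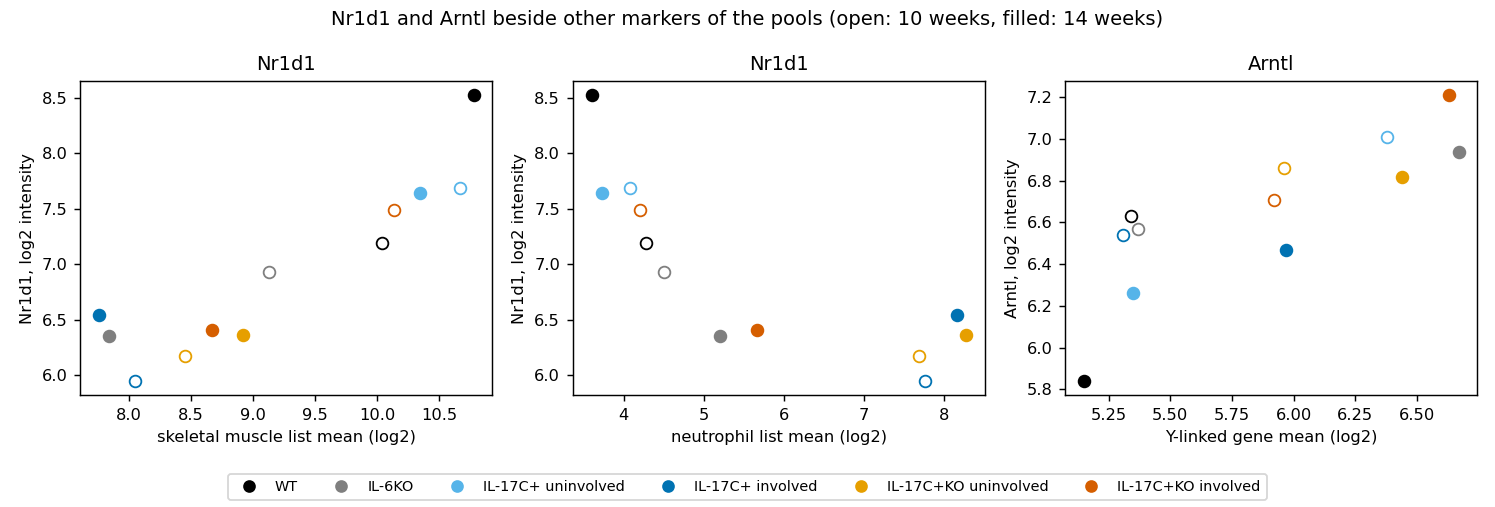
Log2 intensity of Nr1d1 against the mean of skeletal muscle markers (left) and of neutrophil markers (middle), and of Arntl against the mean of 3 Y-linked genes (right), on 12 arrays, open at 10 weeks and filled at 14 weeks. Nr1d1 climbs with muscle markers (r = 0.91) and descends with neutrophil markers (r = -0.81), and Arntl climbs with Y-linked genes (r = 0.82).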

How the data were processed

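The authors deposited 1 table of array intensities for 12 pools, made by RMA (background correction, normalization, probe summary) with the Expression Console software of Affymetrix, per the submitters' processing notes. Their versions and probe filters are not stated there. The deposited intensities are linear (2.5 to 18385), so log2 was taken here, as the plan provided for linear values. Of 41345 rows, 23521 name 1 gene, and the row with the highest mean stood for each of 22180 genes. Rows naming several genes (1814) or none (16010) were left out.

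Differences were tested over all genes in R 4.3.3 with limma 3.58.1 (lmFit, eBayes with trend) in a model of group plus age over 12 arrays, with 5 residual and 7.65 prior degrees of freedom, and adjusted by Benjamini-Hochberg per comparison, with 0.05 as threshold. The model was tested on simulated data. Age is the only replicate label, so the age term is the replicate block. Correlations are across arrays. Every member was named, with other clock genes that passed and the 6 genes most and least like Dbp or Arntl. Members and lists were chosen with earlier results of these data known. Alternatives were no age term, no trend, a filter on low values, renewed quantile normalization, the mean of all rows, a muscle covariate and leaving out each array.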

Additional observations from a re-analysis of the deposited data

Results flagged for a closer look

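Dbp is given again because its 2 transgenic genotypes moved in opposite directions with age: from 10 to 14 weeks it changed by 1.04 and 0.55 in IL-17C+ involved and uninvolved skin and by -1.09 and -0.06 in IL-17C+KO involved and uninvolved skin. The mean difference between the genotypes was -1.37, with 1 array on each side of every change. This difference was not tested, since it chose the gene.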

How the results depend on the processing

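In 10 comparisons under 18 alternatives, the number of members that passed stayed at 0 in 9 of them. In IL-17C+ involved against WT skin it was 1 with quantile normalization again (Nr1d2) and ran from 0 to 1 when single arrays were left out (Nr1d1). Of 1422 differences of single members under alternatives, 82 changed sign, none of them past the threshold. Of these, 28 were among the 80 with the muscle covariate. The Dbp age value of -1.37 became -1.52 with quantile normalization again. With quantile normalization again 6 members in place of 4 lay lower without overlap in IL-6KO than in WT skin, and 5 in place of 4 in IL-17C+ involved than in WT skin. In IL-17C+ involved against uninvolved skin 6 members in place of 7 were lower. In IL-17C+KO uninvolved against IL-6KO skin 2 in place of 1 were lower, and 1 in place of 2 was higher in IL-17C+KO involved than in IL-17C+ involved skin. This alternative for overlap was chosen after seeing the data, as were the correlations without WT and after regression on muscle.

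The count over all genes moved more. Without the replicate block, which changed no member's call, it was 26 in place of 101 in IL-6KO against WT, 14 in place of 38 in IL-17C+KO involved against IL-6KO and 7 in place of 12 in IL-17C+ uninvolved against WT skin. With quantile normalization again these were 163, 2 and 2, and 678 in place of 399 in IL-17C+ involved against WT skin. With genes kept when over the array median on 2 arrays or more, 152 passed in IL-6KO and 19 in IL-17C+ uninvolved against WT skin. Without the intensity trend 63 passed in IL-6KO against WT, 15 in IL-17C+KO involved against IL-6KO and 3 in IL-17C+ uninvolved against WT skin. With the muscle covariate the 9 group counts, in the order IL-17C+ involved against WT and against uninvolved, IL-17C+ uninvolved and IL-6KO against WT, IL-17C+KO involved against uninvolved and against IL-6KO, then IL-17C+KO uninvolved against IL-6KO, and IL-17C+KO against IL-17C+ in involved and uninvolved skin, were 0, 0, 33, 0, 50, 0, 107, 18 and 2, in place of 399, 357, 12, 101, 112, 38, 88, 144 and 158. The age comparison could not be fitted without the age term. In the same order, leaving out single arrays gave 65 to 509, 63 to 519, 0 to 87, 7 to 153, 16 to 160, 0 to 62, 15 to 164, 23 to 244 and 59 to 200. With 2 pools a group, and Npas2 near the array floor, small differences of members could not be resolved.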

Other observations

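Among 10 glucocorticoid-responsive genes, Zbtb16, which encodes the zinc finger protein PLZF, was the 1 that passed as lower in IL-17C+ involved than in IL-17C+ uninvolved skin (-1.74 ± 0.32, adjusted p = 0.0177 by limma), with pools at 5.92 and 6.33 against 8.17 and 7.56. It was also the 1 that passed as higher in IL-17C+KO involved (8.19 and 7.54) than in IL-17C+ involved skin (1.74 ± 0.32, adjusted p = 0.031). Of 9 immediate early genes, Fosb (-1.73 ± 0.38, adjusted p = 0.0396) and Atf3 (-1.20 ± 0.26, adjusted p = 0.0401) passed as lower in IL-17C+ involved than uninvolved skin, and Nr4a1 passed as higher in IL-17C+KO uninvolved than in IL-6KO skin (2.06 ± 0.31, adjusted p = 0.0121). The calls of Zbtb16, Fosb and Atf3 in IL-17C+ involved against uninvolved skin were lost with the muscle list mean as a covariate. That model called 0 of all genes in this comparison, in place of 357, so the loss is not particular to them. The neutrophil markers given above also differ between several of these groups, and their part was not tested.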
